A study of Mus musculus with 2 samples.

Results

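The genes of the pre-B receptor and of early B cell development were followed across the cells of newborn mouse knee joints. The set holds 10 genes of the 32285 in the deposited matrix, found by their symbols: Igll1, Vpreb1, Vpreb3, Rag1, Rag2, Dntt, Ebf1, Pax5, Il7r and Ighm. Joints came from wild-type mice and from mice lacking Col12a1, which encodes the fibril-associated collagen XII, at postnatal day 7, with males and females together. Tissue was digested in collagenase II at 4 mg/mL for 6 h, and cells were sequenced with the 10x Genomics 3' v3 chemistry. Libraries came from 2 experiments, the first with 1 and the second with 2 for each genotype. All cells stand in 1 matrix, whose barcodes end in 1 or 2 (barcode sets 1 and 2), and no label ties a set to a genotype, so the matrix was treated as 1 sample without replicates and no comparison of genotypes was made. Both sets' values are given below to show how far they differ. The sets are not taken as replicates or as genotypes, although the calls of higher or lower below require the same direction in both.

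B cells are built from progenitors that first rearrange the immunoglobulin heavy chain. RAG1 and RAG2 cut the DNA, and Dntt encodes terminal transferase, which adds bases at the joints. A productive heavy chain, whose constant part is encoded by Ighm, pairs with the surrogate light chain made of the Igll1 and Vpreb proteins, and this pre-B receptor drives a burst of division before the light chain is rearranged. Ebf1 and Pax5 encode transcription factors that set and hold B cell identity, and Il7r encodes the receptor chain through which interleukin 7 supports B cell precursors in mice. In the newborn limb this takes place in the bone marrow, which lies next to the joint.

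Some members lie close together in the genome (GRCm38, GENCODE M21). Igll1 (chr16:16860671-16863985, minus strand) and Vpreb1 (chr16:16868403-16870843, minus strand) are 4417 bases apart, and Vpreb2, the near copy of Vpreb1, starts 1109584 bases further on. The Vpreb1 and Vpreb2 transcripts were identical at 739 of 759 aligned bases and at 97 of the last 100, the end that 3' libraries read. Counts could therefore be split between these 2 genes, and the level of each is uncertain. Rag2 (chr2:101624718-101632529, plus strand) and Rag1 (chr2:101638282-101649501, minus strand) are 5752 bases apart and both overlap exons of B230118H07Rik, which lies on the strand of Rag1. The sources used here do not say how reads in that overlap were assigned. Ebf1 (chr11:44617317-45008091, plus strand) holds the antisense gene Gm12158, an exon of Vpreb1 overlaps Top3b on the other strand, and exons of Pax5 (chr4:44524757-44710487, minus strand) overlap Gm12462 and 5730488B01Rik on the other strand. Vpreb3 (chr10:75943057-75949657), Dntt (chr19:41029275-41059525), Il7r (chr15:9505788-9530176) and Ighm (chr12:113418558-113422730) complete the set.

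Stretches before the RefSeq start (GRCm38.p6) are printed for the surrogate light chain genes, their relative Vpreb3 and Rag1. All were high in the early pro-B-like cells described below, although Rag1 was lower in the sub-cluster where Igll1 was next highest. RefSeq promoters of 300 bases were matched for 9 of the 10 members. Capitals mark CAGGTG, an E-box that the E2A factors are known to bind, in Rag1, its complement CACCTG in Igll1, and the octamer ATTTGCAT in Vpreb3. In Vpreb1 and Vpreb2 capitals mark the bases at which the stretches differ.
Igll1, chr16:16863986-16864135, minus strand: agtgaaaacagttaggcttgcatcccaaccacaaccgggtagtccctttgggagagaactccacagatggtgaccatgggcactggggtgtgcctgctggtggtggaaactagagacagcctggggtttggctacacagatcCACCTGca
Vpreb3, chr10:75948200-75948299, plus strand: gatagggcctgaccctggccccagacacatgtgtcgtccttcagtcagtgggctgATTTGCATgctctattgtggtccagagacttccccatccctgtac
Rag1, chr2:101649603-101649702, minus strand: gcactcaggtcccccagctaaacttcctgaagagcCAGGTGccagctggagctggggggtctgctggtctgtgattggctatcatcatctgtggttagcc
Vpreb1, chr16:16869256-16869361, minus strand: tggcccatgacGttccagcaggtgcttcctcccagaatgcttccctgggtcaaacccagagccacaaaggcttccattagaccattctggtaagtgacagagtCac
Vpreb2, chr16:17980315-17980420, plus strand: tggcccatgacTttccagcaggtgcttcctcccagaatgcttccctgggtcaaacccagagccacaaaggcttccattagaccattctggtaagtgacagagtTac
Counted from 1 at the 5′ end, with the Vpreb1 base first, the last pair differs by G12T and C104T and is identical at the other 104 of 106 bases. CAGGTG, searched on both strands, was found in 3 of the 9 member promoters (Igll1, Rag1 and Vpreb1) and in 20.2% of all 32851 RefSeq promoters. ATTTGCAT was found in 1 of the 9 (Vpreb3) and in 1.74% of all. CCCNNGGG, the core letters that EBF factors are known to bind, was found in 1 of the 9 (Igll1, outside the printed stretch) and in 13.7% of all. The motifs were chosen after the sequences were read, and a match is a description of letters only.

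The matrix held 257619292 unique molecular identifiers (UMIs, each a counted RNA molecule) in 24203 barcodes. A cell was kept with 500 or more genes, 1000 or more UMIs and no more than 10% of UMIs from mitochondrial genes. This kept 15174 cells, 7160 in set 1 and 8014 in set 2, with median depths of 10964 and 9623 UMIs. Clustering without the 10 members and without the gene lists described below gave 33 clusters. Cluster 5 (747 cells) had 11 of the 11 B cell markers at a log2 fold of at least 1 and cluster 18 (311 cells) had 10. Together these 2 clusters form the B lineage-like class of 1058 cells, or 6.97% of kept cells (95% Clopper-Pearson interval 6.57 to 7.39), with 332 cells (4.64%) in set 1 and 726 (9.06%) in set 2. Its median depth was 3845 UMIs. Cd79a, a signalling chain of the B cell and pre-B receptors, stood at 952 CPM (UMIs per 1000000 UMIs of the class), against 1.94 CPM in all other kept cells. The class also took in 4 small sub-clusters of 69 cells in all, led by haemoglobin, collagen or neutrophil genes or, in 9 cells, holding the plasmacytoid dendritic gene Siglech without Cd79a. Doublets were not removed: Scrublet called 3 cells in set 1 and 1 in set 2, a rate too low to have worked. Among the kept cells, 14 barcode sequences occurred in both sets. Intervals cover counting error only.

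The 10 members were higher in the B lineage-like class than in the other 14116 kept cells, but to very different degrees. Surrogate light chain, recombination and Pax5 transcripts were nearly confined to the class, Ighm and Dntt slightly less so, and most Ebf1 molecules and almost as many Il7r molecules as inside the class lay elsewhere. A gene was called higher or lower if it had at least 100 UMIs, a CPM ratio of at least 2 or at most 0.5, a 95% counting interval that left out 1, and the same sign in set 1 as in set 2. By this rule 10 of 10 members were higher and 0 lower, where 22.2% of the 16900 genes tested were higher and 29.9% lower. The median log2 ratio was 8.90 for the members and -0.01 for all genes tested. The genes were chosen as B cell genes, so the count describes how well the class holds them.

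Of the 1892 Igll1 UMIs in kept cells, 97.8% lay in the class. The Igll1 level was 258 CPM there (95% Poisson interval 246 to 269.7; 249 in set 1 and 264 in set 2), and the ratio to other cells was 1281 (interval 944 to 1783). Outside the class 23 cells held an Igll1 UMI. The share in the class was 95.1% for Vpreb1 (433 CPM, ratio 566) and 96.4% for Vpreb3 (1019.5 CPM, ratio 768). Rag1 had 96.0% of its UMIs in the class, at 105 CPM in set 1 and 137 in set 2, and Rag2 had 93.8%, at 19.9 and 29.2 CPM. Rag2 was the least covered member, with 182 UMIs in the class. Pax5 had 94.7% of its UMIs in the class (514 and 712 CPM), Ighm 88.7% (1359 and 1749 CPM) and Dntt 87.0% (98.1 and 146 CPM). The level in the class was higher in set 2 than in set 1 for 10 of 10 members, and closest for Vpreb1 (429 and 437 CPM) and Igll1. The share of all genes that were higher in set 2 was not computed, so this direction cannot be called particular to the members.

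**Figure D1:**
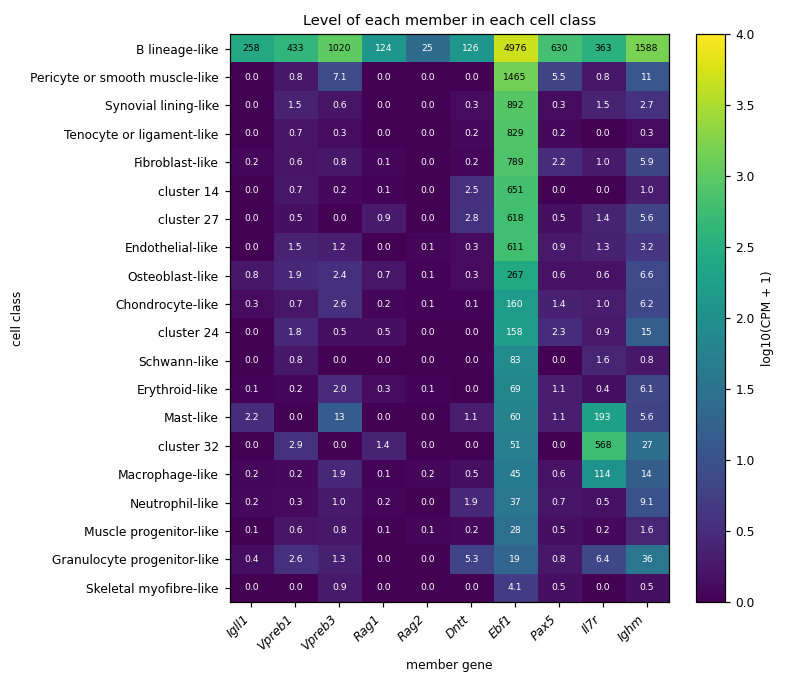
Level of each of the 10 members (columns) in each of the 20 classes or unnamed clusters (rows), in CPM, with the colour on a log10(CPM + 1) scale and the CPM printed in each cell. The B lineage-like row is filled throughout, while the Ebf1 column is filled in connective tissue rows and the Il7r column in cluster 32, mast-like and macrophage-like rows.

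Within the class, clustering again without the members gave 13 sub-clusters, 9 of them with at least 40 cells. Stage names come from fixed markers that include no member. Sub-cluster 6 (68 cells) was early pro-B-like, with Erg, a factor of early progenitors, at 917 CPM against 102 in the other B lineage-like cells. Sub-cluster 4 (82 cells) was cycling B precursor-like, with the proliferation gene Mki67 at 1625 CPM. Sub-cluster 1 (193 cells) was small pre-B-like, with Il2ra, which marks pre-B cells, at 278 CPM. Sub-cluster 3 (89 cells) was immature or mature B-like, led by Cd83, Iglc2, H2-Aa, Ccr7 and Cd74. Sub-cluster 5 (78 cells) also carried immature or mature B markers, with Ms4a1, the gene of CD20, at 1428 CPM. Bank1, Btla, Sorl1 and Sox5 were called higher and stood among its leading genes. The osteoblast gene Bglap ranked first there, but its 85 UMIs all came from set 1 and it was not called, and Col1a1 stood at 603 CPM. Sub-clusters 0, 2, 7 and 8 (226, 165, 48 and 40 cells) had no stage name. Sub-cluster 2 was the deepest, with a median of 11752 UMIs, and sub-cluster 0 the shallowest, with 1915.5. Because 2 sub-clusters share a stage name, the sub-clusters are compared by number, each against the rest of the class.

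Each of the 10 members passed the size rule in at least 1 of the 9 comparisons. The share of all genes that did so was not computed, so this count alone does not set the members apart. In sub-cluster 6, 5 members were higher and 0 lower, against 5.65% and 10.5% of the 7746 genes tested. In sub-cluster 1, 5 were higher and 2 lower (18.3% and 22.4% of genes), and in sub-cluster 2, 3 were higher and 6 lower (9.97% and 24.1%). Sub-cluster 4 had 2 higher and 1 lower (10.7% and 12.5%), sub-cluster 7 had 2 and 2 (5.25% and 12.2%). Sub-cluster 5 had 1 higher and 6 lower (20.1% and 20.7%), and sub-cluster 3 had 1 higher and 8 lower (4.67% and 15.8%). Sub-clusters 0 and 8 had none higher and 3 lower each, the same Igll1, Vpreb1 and Dntt in both (5.82% and 15.6% of genes in sub-cluster 0, 3.64% and 9.33% in sub-cluster 8). These shares of all genes, and those given above for the whole class, are also the background for the counts of listed genes below. The members peaked in different sub-clusters, as the groups below show.

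**Figure D2:**
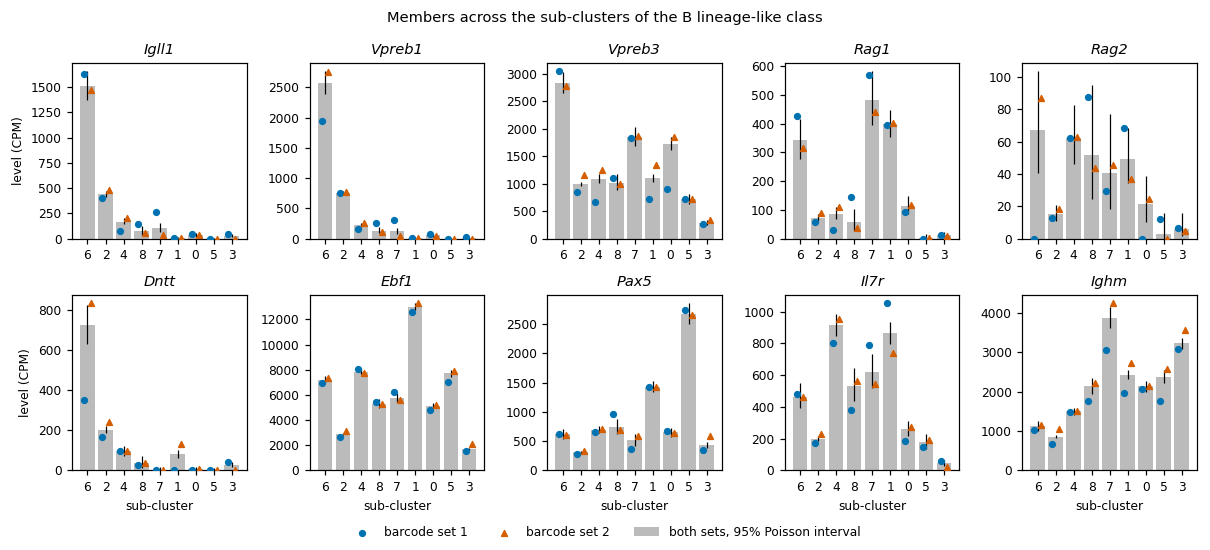
Level in CPM (vertical axis, from 0) of each member in the 9 larger sub-clusters (horizontal axis), with grey bars for both barcode sets together, black lines for the 95% Poisson interval, circles for set 1 and triangles for set 2. Igll1, Vpreb1 and Dntt are highest in sub-cluster 6, Rag1 in sub-clusters 7 and 1, Ebf1 in sub-cluster 1, Pax5 in sub-cluster 5, Il7r in sub-clusters 4 and 1, and Ighm in sub-clusters 7 and 3.

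The surrogate light chain genes peaked in the early pro-B-like sub-cluster 6. Igll1 reached 1509.7 CPM there (interval 1374 to 1656), at 1626 in set 1 and 1475 in set 2, which was 7.43 times the rest of the class (6.66 to 8.26). It was next highest in sub-cluster 2, at 443 CPM (406 and 484 by set), followed by sub-cluster 4 at 169 (76.3 and 204). In the small pre-B-like sub-cluster 1 the level was 7.03 CPM, from 5 UMIs, and in sub-cluster 5 no Igll1 UMI was found in 78 cells, at least 31.1-fold lower than the rest with 3 counts as the floor. Vpreb1 followed the same order at the top, with 2574 CPM in sub-cluster 6 (1949 and 2759 by set, 7.56 times the rest), 759.9 in sub-cluster 2 and 227 in sub-cluster 4. It too had no UMI in sub-cluster 5, at least 52.4-fold lower. Vpreb2 stood at 311 CPM in sub-cluster 6, at 103 in sub-cluster 2 and at 27.4 in sub-cluster 4. Igll1 in sub-cluster 3 rests on 20 UMIs of 2 cells, both in set 1, and in sub-cluster 7 its level was 263 CPM in set 1 and 32.4 in set 2, so the sets differ at these low levels.

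Vpreb3, which is related to the Vpreb genes by sequence but is not part of the surrogate light chain, had a broader pattern. It was also highest in sub-cluster 6, at 2845 CPM (3048 and 2785 by set, 3.03 times the rest), but stayed at 1856 CPM in sub-cluster 7 and 1732 in sub-cluster 0, where set 1 gave 914 and set 2 gave 1861. Levels of 997 to 1099.7 CPM in sub-clusters 1, 2, 4 and 8 did not differ beyond the gap between sets, which in sub-cluster 4 ran from 677 to 1252 CPM. Only in sub-cluster 3 was Vpreb3 called lower, at 288 CPM (0.264 times the rest). After each cell was thinned to 2000 UMIs, with 193 of 1058 cells too shallow and left out, 72.1% of B lineage-like cells held a Vpreb3 UMI, against 18.3% for Igll1 and 21.5% for Vpreb1. Without thinning these shares were 81.9%, 22.3% and 24.2%. In chondrocyte-like cells, which should lack these genes, the thinned shares were 0.516%, 0.147% and 0.295%.

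Igll1 and Vpreb1 were found in the same cells. Of the 158 thinned cells with an Igll1 UMI, 132 (83.5%, Clopper-Pearson interval 76.8 to 89.0) also held a Vpreb1 UMI, against 7.64% of the 707 cells without one. The share was 77.6% in set 1 and 87.0% in set 2. Igll1 and Ms4a1, in contrast, rarely met: 8 of the 158 (5.06%) held Ms4a1 against 21.9% of the rest. Igkc, the constant part of the kappa light chain that replaces the surrogate chain, was found in 17.7% of cells with Igll1 and in 70.0% of those without.

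**Figure D3:**
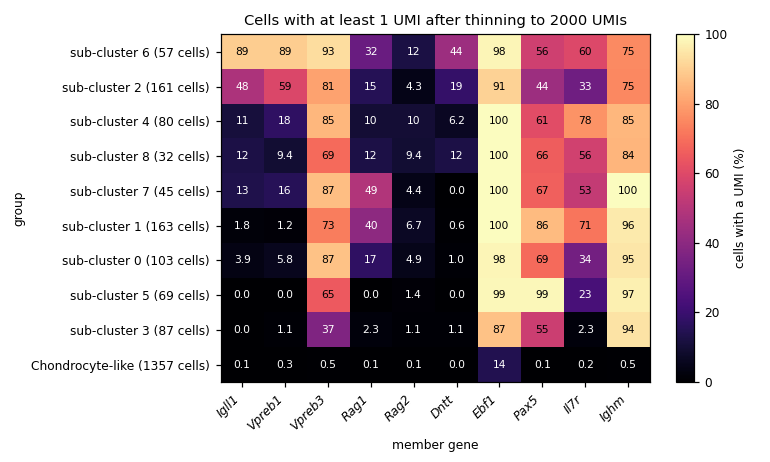
Share of cells (colour and printed value, in %) with at least 1 UMI of each member (columns) after every cell was thinned to 2000 UMIs, in the 9 larger sub-clusters and, as background, in chondrocyte-like cells (rows, with the number of cells used). Igll1 and Vpreb1 are found in 89.5% of sub-cluster 6 cells and in none of sub-cluster 5, while Ebf1 is found in 87.4% to 100% of the cells of the sub-clusters.

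The recombination genes differed from each other. Dntt went with the surrogate light chain: it was at 723 CPM in sub-cluster 6 (7.19 times the rest), although set 1 gave 352 and set 2 gave 833, and at 201 CPM in sub-cluster 2. No Dntt UMI was found in sub-clusters 5 and 7, and in sub-cluster 1 its 57 UMIs all came from 1 cell of set 2. The 18 in sub-cluster 3 came from 1 cell of set 1. Of the 68 thinned cells with Dntt, 52 (76.5%) also held Igll1, against 13.3% of the cells without Dntt, and the share was 76.5% in each set. Rag1 was called higher in 3 sub-clusters, with and without high Igll1. It stood at 481 CPM in sub-cluster 7 (569.8 and 441 by set), at 399 in the small pre-B-like sub-cluster 1 (397 and 401) and at 341 in the early pro-B-like sub-cluster 6 (425 and 317), and the intervals of neighbours in this order overlap. These were 4.29, 4.28 and 2.99 times the rest of the class. Rag1 was at 72.9 CPM in sub-cluster 2 and 87.3 in the cycling sub-cluster 4. It was lowest in the later cells, at 12.3 CPM in sub-cluster 3 and with 1 UMI in sub-cluster 5 (ratio 0.0224, interval 0.000565 to 0.125).

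Rag2 had few UMIs, and its order over the sub-clusters was not resolved. The pooled level was highest in sub-cluster 6, at 66.9 CPM (20 UMIs, none in set 1 and 86.8 CPM in set 2), where Rag1 was also high, but without a UMI in set 1 it was not called. Rag2 was called higher in the cycling sub-cluster 4, at 62.5 CPM (62.0 and 62.8 by set, 2.99 times the rest), and in sub-cluster 1, at 49.2 CPM (68.5 and 36.9, 2.17 times). Sub-cluster 8 stood at 51.7 CPM from 10 UMIs, and the intervals of sub-clusters 6, 4, 8 and 1 overlap. Rag1 in sub-cluster 4 was 0.683 times the rest (interval 0.524 to 0.877), at 0.258 in set 1 and 0.777 in set 2. Of the 45 thinned cells with a Rag2 UMI, 20 (44.4%, interval 29.6 to 60.0) held Mki67, against 21.1% of cells without Rag2. Of the 173 with a Rag1 UMI, 27 did (15.6%, interval 10.5 to 21.9), against 24.0% of cells without Rag1. With all UMIs the shares were 50.4% against 25.8% for Rag2 and 28.2% against 28.8% for Rag1. Erythroid markers differed between the sub-clusters with high cell cycle genes. The 6 erythroid genes in the matrix summed to 47020 CPM in sub-cluster 4, 32307 in sub-cluster 8 and 596 in sub-cluster 2. Their part in the Rag2 result was not tested. The call for Rag2 in sub-cluster 4 rests on 48 UMIs and was not made under every clustering, as given in the closing section.

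Genes that repair the breaks made by RAG1 and RAG2 were taken as a list of 12. In the B lineage-like class 10 of the 12 were higher and 0 lower, with a median log2 ratio of 1.99. Polm, a polymerase that fills broken ends, was 19.8 times the other cells (3.04 CPM), Xrcc6, which encodes Ku70, at 194 against 13.1, and Lig4, the joining ligase, at 30.5 against 2.71. In sub-cluster 1, 5 of the 10 tested were higher and 2 lower, against 18.3% and 22.4% of all genes tested. The share that was lower is near that of all genes. Polm was 6.40, Lig4 4.18 and Xrcc6 2.52 times the rest, and Hmgb2 and Hmgb1, chromatin proteins that are also high in dividing cells, were 0.118 and 0.279 times. In sub-cluster 6, where Rag1 was also high, 0 were higher and 4 lower, with Polm at 6.69 CPM against 62.3. Polm stood at 250.3 CPM in sub-cluster 1 and at 6.69 in sub-cluster 6, while both had high Rag1.

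Ebf1 was present in every B cell stage. After thinning, 94.8% of B lineage-like cells held an Ebf1 UMI, and the share was 87.4% to 100% over the 9 sub-clusters. Its level still varied between sub-clusters, from 13020.2 CPM in sub-cluster 1 (12619.8 and 13276 by set, 3.18 times the rest) to 2885 in sub-cluster 2 and 1705 in sub-cluster 3 (1514 and 2135). Sub-clusters 4, 5 and 6 lay at 7842, 7710.4 and 7224 CPM, with a gap between the first 2 inside their intervals. Pax5, which acts after Ebf1, had its highest level in sub-cluster 5, at 2677 CPM (2748 and 2655 by set, 5.08 times the rest), then 1429 in sub-cluster 1. It was lowest in sub-cluster 2, at 309 CPM. Of the 552 thinned cells with a Pax5 UMI, 537 (97.3%) held Ebf1, and so did 90.4% of those without Pax5. Malat1, a nuclear RNA picked after its values were seen, was at 14388 CPM in sub-cluster 1, 20735 in sub-cluster 5 and 3549.6 in sub-cluster 2. Over these sub-clusters its order was that of Pax5 and not that of Ebf1, and its levels in the others are not given here. Ebf1 and Pax5 are long genes, spanning 390775 and 185731 bases. The sources used here do not say if intronic reads were counted, and the part of nuclear RNA in these levels was not tested.

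Of 19 other B lineage transcription factors, 17 were higher in the class and 1, Id3, was lower (131 CPM against 389). Their median log2 ratio was 4.00. The highest ratios were those of Spib (346), Pou2af1 (289.9), a coactivator of the octamer factors, and Ikzf3 (118). In sub-cluster 6, 3 were higher and 4 lower: Erg was 8.95, Lef1 6.25 and Sox4 2.46 times the rest, whereas Pou2f2 and Ikzf3 were 0.130 and 0.141 times. In sub-cluster 1, 8 were higher and 2 lower, led by Bach2 (4.82 times), Spib (3.39 times) and Foxo1 (3.25 times), the activator of the Rag genes. In sub-cluster 5, 7 were higher and 5 lower, led by Bcl11a, Pou2f2 and Ikzf3 at 7.63, 7.44 and 6.68 times. Erg, Lef1, Sox4, Bach2 and Ikzf3 are also among the markers that named stages, so their direction in the named sub-clusters is not independent of the names.

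Il7r was highest in 2 of the precursor sub-clusters and lowest in sub-cluster 3. It reached 915 CPM in the cycling sub-cluster 4 (805 and 956 by set, 3.08 times the rest) and 863 in sub-cluster 1 (1053 and 742, 2.81 times), with overlapping intervals. Sub-clusters 7, 8 and 6 stood at 620.1, 532 and 465 CPM, also with overlapping intervals between neighbours. Sub-clusters 0, 2 and 5 were lower, at 262, 201 and 179.6 CPM. Sub-cluster 2, which was high in Igll1, Vpreb1 and Dntt, was thus low in Il7r CPM (175 and 229 by set, 0.444 times the rest). Before thinning, 73.9% of sub-cluster 2 cells and 75.6% of sub-cluster 1 cells held an Il7r UMI, at median depths of 11752 and 3511 UMIs. The Il7r level was 46.0 CPM in sub-cluster 3 (57.5 in set 1 and 4 UMIs in set 2, 0.117 times the rest). The remaining genes of interleukin 7 and TSLP signalling included 4 of 16 that were higher in the class and 1 lower, where 22.2% and 29.9% of all genes were, with a median log2 ratio of -0.21. The share that was higher is near that of all genes. Il2rg, the partner chain of Il7r, was at 44.2 CPM against 6.46, Ccnd3, a cyclin needed by dividing pre-B cells, at 341 against 97.1, and Jak3 at 4.74 against 1.88, while Cish, a target of STAT5, was at 5.01 against 24.5. In sub-cluster 4, where Il7r was highest, 0 of 14 were higher and 5 lower, with Ccnd2 and Myc at 0.156 and 0.205 times the rest. In sub-cluster 3, where Il7r was lowest, 5 were higher and 1 lower, with Il2rg 5.03, Ccnd2 4.34 and Pim1 4.31 times the rest.

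Ighm was found in almost every cell of the class, in 87.4% after thinning, and in 75.2% to 100% over the 9 sub-clusters. Its highest levels were 3874 CPM in sub-cluster 7 (3054 and 4238 by set, 2.56 times the rest) and 3227 in sub-cluster 3 (3077 and 3565, 2.27 times). It was already at 1118 CPM in the early pro-B-like sub-cluster 6 (1026 and 1145) and lowest in sub-cluster 2, at 851 (665 and 1059). The 3' reads do not tell whether such transcripts carry a rearranged variable part. Of the 15 genes of pre-B receptor signalling, 12 were higher in the class and 0 lower (median log2 ratio 3.30), with Cd79a at 952 CPM against 1.94 and the kinase Blk at 214 against 0.522. Within the class, 7 of the 15 were higher in sub-cluster 5 and 0 lower, among them Ptpn6 (7.52 times) and Lyn (6.23 times), and 6 were higher and 2 lower in sub-cluster 1, led by Syk (4.65 times), Pik3ap1 and Lyn. In sub-cluster 6, where the surrogate light chain was highest, Fyn was higher and 3 genes were lower.

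Genes of later B cells were lowest where the surrogate light chain was highest, with median log2 ratios of -3.28 in sub-cluster 6 and -2.77 in sub-cluster 2. The 19 that had enough UMIs were all higher in the class (median log2 ratio 4.43), led by Iglc3, Ms4a1 and Igkc at 639.7, 569 and 440.4 times the other cells. Sub-cluster 3 had 15 of 18 higher and 0 lower, with Ccr7, Iglc2 and H2-Aa 14.8, 14.2 and 13.6 times the rest. Sub-cluster 6 had 1 higher, Cxcr5, and 11 lower, and sub-cluster 2 had 0 higher and 15 lower. Several of these genes named the immature or mature stage. Among 14 cell cycle genes, 13 were higher in the class than in other cells, with Pclaf, Top2a and Mcm5 8.06, 4.83 and 4.56 times. Most of the 14 are also the markers that named sub-cluster 4 as cycling, so its count is not independent of the name. Sub-cluster 2 had 6 of the 14 higher and 1 lower, sub-cluster 4 had 9 and 0, sub-cluster 8 had 5 and 0, and sub-cluster 6 had 0 higher and 12 lower. Igll1 and Vpreb1 were therefore high in a sub-cluster with low cell cycle genes (6) and in one with high cell cycle genes (2). Plasma cell genes were few: of 5 tested, Mzb1 and Derl3 were higher in the class and Xbp1 and Sdc1 lower.

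Outside the B lineage-like class, Ebf1 was the most widely found member. The class held 29.4% of its UMIs, and 5949 other cells had at least 1. Pericyte-like or smooth muscle-like cells came next to B cells, at 1465 CPM (interval 1399 to 1533; 1303 in set 1 and 1657 in set 2). Synovial lining-like cells followed at 892 CPM (878 and 899), the tenocyte or ligament-like class at 829 (982 and 723), fibroblast-like cells at 789 (694 and 879.9), cluster 14, led by Msmp and S100a4, at 651 (598 and 705), cluster 27, led by Dnah12, at 618 (549 and 701) and endothelial-like cells at 611 (675 and 560.3). From the synovial lining-like class to the fibroblast-like class, the order changes between the sets: the tenocyte or ligament-like class was highest of these 3 in set 1 and lowest in set 2. Osteoblast-like cells had 267 CPM (315 and 192) and chondrocyte-like cells 160.4 (134 and 194). Cluster 24, led by Car1 and Acp5, had 158 CPM, from 21.8 in set 1 and 320.0 in set 2. Skeletal myofibre-like cells were lowest, at 4.12 CPM from 9 UMIs. The related factors Ebf2 and Ebf3 were highest in other orders: Ebf2 in pericyte-like (237 CPM) and fibroblast-like cells (170.4), and Ebf3 in endothelial-like (136) and pericyte-like cells (124). Pax5, which follows Ebf1 in B cells, was at 5.54 CPM or less in each class outside the B lineage.

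**Figure D4:**
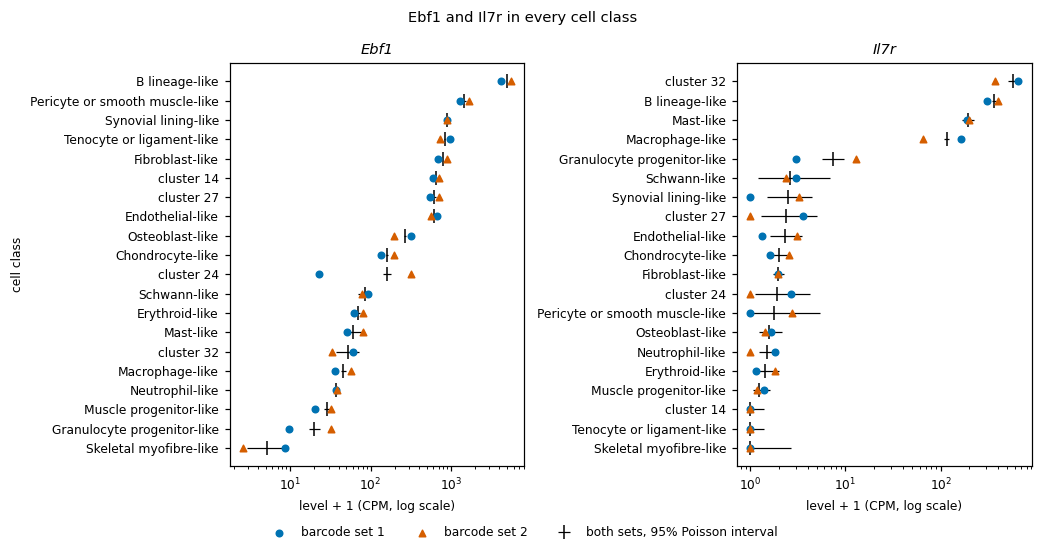
Level plus 1 (CPM, log scale) of Ebf1 (left) and Il7r (right) in each class or unnamed cluster, with a black tick and line for both barcode sets and the 95% Poisson interval, circles for set 1 and triangles for set 2. Ebf1 falls gradually from the B lineage-like class through pericyte-like and connective tissue classes, while Il7r is at 114 CPM or more in 4 groups and at 6.41 CPM or less in the others.

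Il7r had a narrow second use. Cluster 32 (68 cells, led by Il5, Skap1 and Gata3, with 8 of the 10 T cell markers) had 568 CPM (interval 513 to 627), against 363 in the B lineage-like class. It was above the class in set 1 (655 against 309 CPM) and below it in set 2 (372 against 401, with overlapping intervals). Mast-like cells had 193 CPM (189.7 and 198) and macrophage-like cells 114 (161 and 64.7). The share of Il7r UMIs that lay in the B lineage-like class was 37.5% in set 1 and 72.3% in set 2, and the ratio to other cells 21.3 and 64.1, so this split depends on the set. Crlf2, which pairs with Il7r in the TSLP receptor, was at 62.4 CPM in mast-like cells and 48.6 in cluster 32 against 28.7 in the B lineage-like class. Ighm was found at 36.3 CPM in granulocyte progenitor-like cells (23.6 and 51.9) and 27.2 in cluster 32, and Dntt at 5.30 CPM in the former, from 0.503 in set 1 and 11.3 in set 2. Igkc, a light chain gene of B cells, stood at 9.41 CPM in neutrophil-like cells and 21.3 in cluster 24. The part of free RNA and of doublets in such levels was not tested.

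Ligands that feed early B cells were looked up in the joint. Of the 8 listed, 7 were lower in the B lineage-like class than outside it and 1, Flt3l, was higher (6.27 CPM against 2.28). Il7, the ligand of Il7r, was barely counted, with its highest level of 5.73 CPM in endothelial-like cells (5.62 and 5.82 by set, 39 UMIs) and 1.37 in fibroblast-like cells. Tslp, the other ligand, reached 24.6 CPM in fibroblast-like cells (38.1 and 11.8) and 20.8 in chondrocyte-like cells (36.0 and 1.71), and none was counted in B lineage-like cells. Cxcl12, which holds precursors in the marrow, was highest in endothelial-like cells at 559 CPM (357 and 721), followed by pericyte-like cells at 246. Kitl was at 489 CPM in endothelial-like and 242 in pericyte-like cells, and Vcam1 at 159 in both muscle progenitor-like and osteoblast-like cells.

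Genes whose pattern was most like that of a member were ranked by Pearson's r of log2(CPM + 10) over the 33 clusters, which share libraries and differ in depth. Most of the 33 clusters lie outside the B lineage-like class. For Igll1 and Rag1 a high r therefore mostly reflects presence in the class and absence elsewhere, and does not resolve patterns within the class. For Igll1 the nearest non-members were Gm11755 and Gm30948 (both 0.994), Bfsp2 (0.974), Gm5099 (0.970) and Drc7 (0.961), beside Vpreb1 at 0.995 and Dntt at 0.982. For Rag1 they included Capsl (0.995), 1810059H22Rik (0.993), Gm37065 (0.991) and Pou2af1 (0.988), beside Pax5 at 0.993, Rag2 at 0.983 and Vpreb3 at 0.978, and Igll1 stood at 0.886. For Ebf1 they were Gm12158 (0.844), the gene antisense to it, Hdac7 (0.824), Pced1a (0.784), Mast4 (0.775) and Ripor1 (0.771), and no other member was above 0.564.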

How the data were processed

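Single-cell RNA sequencing was run on knee joints of mice with and without Col12a1. Per the labels' protocols, Cell Ranger 7.0.0 aligned the reads and merged the experiments, and mm10 is the build that the submitters' processing notes name. UMI counts per gene and barcode are deposited as whole numbers, without normalisation. The sources used here do not say if introns were counted. Counts were read in Python 3.11.15 with numpy 2.4.6 and scipy 1.17.1. Cells were scaled to 10000 counts and log-transformed, and 2000 variable genes, 30 components, 15 neighbours and Leiden clustering (resolution 1, seed 1, scanpy 1.11.5, leidenalg 0.10.2) gave the clusters, with 127 genes (members, listed genes, Xist and Y-linked genes) left out. Mitochondrial genes, genes whose symbols start with Rpl or Rps, and genes found in fewer than 10 cells were left out as well. A cluster took the name of the class whose markers had the highest mean log2 fold, if the median marker log2 fold was at least 1 and at least 3 markers found in at least 10% of its cells had a log2 fold of at least 1. Clusters whose leading genes went against the name stayed unnamed or are given by number. CPM are UMIs summed over a class per 1000000, with exact Poisson intervals; ratios have exact conditional binomial intervals at 95%. A gene at 0 on one side was set to 3 counts for bounds and for list medians. No p-value was computed, since cells are no replicates, and the planned comparison of genotypes was not run.

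The members and gene lists were chosen with earlier results of these data known. Named genes are the members, the 3 highest and 2 lowest called genes of each list, the 5 leading genes of sub-clusters, and the 5 genes most like Igll1, Rag1 and Ebf1. Il7, Cxcl12, Kitl, Crlf2, Ebf2, Ebf3, Malat1, Col1a1, Siglech, Il2ra, Mki67 and the co-detected genes fall outside this rule and were chosen after their values were seen. The size rule was tried on simulated sums that held counting error only, without variation between cells. The simulation therefore cannot show how the rule behaves where a few cells hold most UMIs of a gene. Of 32285 gene IDs, 32158 were found in GENCODE M21, which gave coordinates. Some genes that this rule names are not reported here.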

Additional observations from a re-analysis of the deposited data

How the results depend on the processing

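No paired analysis was possible because no column of the matrix belongs to 1 sample and no result comes from a test. The members called higher in the B lineage-like class numbered 9 or 10 under the 18 alternatives, with Rag2 lost without barcode set 2, where it had fewer than 100 UMIs. Those called in any sub-cluster numbered 7 to 10 under 17, without a share over all genes to set beside them. The class held 6.34% of cells with at least 200 genes and 500 UMIs, 6.28% with at least 1000 genes and 2000 UMIs, 5.96% with at most 5% mitochondrial UMIs, 6.40% with 15 components, 8.73% with a gate of 3 marker UMIs, 9.06% without barcode set 1, 4.64% without barcode set 2 and 6.55% without the sub-clusters led by other cell types, an alternative chosen after seeing the data. A ratio of 4 left 3 members higher in the early pro-B-like cells, 0 in the cycling, 1 in the small pre-B-like and 0 in the immature or mature B-like cells. Members higher in the cycling cells fell from 2 to 1 at resolution 2, and to 0 with 15 components or with listed genes kept in clustering. In the immature or mature B-like cells, 2 fell to 1 with 200 genes and 500 UMIs, without barcode set 1, without barcode set 2 or without the sub-clusters led by other cell types, and to 0 with 15 components. With 15 components the ratio of Igll1 to other cells was 66.3, and the cause was not tested. With the gate the Igll1 level was 131 CPM and the Ebf1 level 2598 CPM. Of 491 single-gene values under alternatives, 331 stayed within the main counting interval and 160 moved. A reversal could be scored only for the ratios to other cells, and 0 were found. The lowest main ratio was 12.1, for Ebf1, so a reversal was unlikely from the start. Depth limits Rag2 most, with 204 UMIs in all.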
